A study of Rattus norvegicus with 6 samples.

Results

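The 8 channel genes described here were *Kcnj11*, *Abcc8*, *Kcnma1*, *Cacna1a*, *Cacna1c*, *Cacna1d*, *Cacnb2* and *Trpm5*, read in replicating and quiescent rat β-cells. They were chosen by name, as every non-control probe whose gene name in the array files was 1 of these symbols, which gave 21 of the 45598 probes and 8 of the 15742 genes with a symbol. *Cacna1c* had 5 probes, *Cacna1d* had 4 and each of the other genes had 2. For none of the 8 genes was a difference between replicating and quiescent cells detected beyond the spread between islet preparations. *Cacna1d*, a pore-forming subunit of the L-type calcium channel, was the only gene whose brightest probe read higher in the replicating cells of all 3 preparations, by a log2 ratio of 0.53 ± 0.36 (SE, n = 3 pairs). Of all genes, 19.4% read higher in all 3 preparations, and the other probes of *Cacna1d* did not.

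Islets came from young adult male Wistar rats, 4 rats to a preparation, and were cultured overnight with EdU, a thymidine analogue that marks cells which have copied their DNA. Dispersed cells were stained with the zinc dye Newport Green, fixed, permeabilised and sorted as large, granular, dye-bright β-cells that were EdU-positive (replicating) or EdU-negative (quiescent). Each of the 3 preparations gave 1 array of replicating and 1 of quiescent cells, all on 1 slide, and the labels and methods name no transgene or drug. Each sample was a pool of cells from 4 rats, the RNA came from fixed cells and was amplified before labelling, and a lower reading through fewer cells of a type cannot be told apart from less RNA per cell.

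In a β-cell, metabolism of glucose raises ATP, which closes the ATP-sensitive potassium (KATP) channel and lets the membrane depolarise. Depolarisation opens voltage-gated calcium channels, and the calcium that enters drives fusion of insulin granules. Calcium- and voltage-gated potassium channels end each action potential, and the calcium-activated cation channel TRPM5 adds a depolarising current.

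The sequences below are shown because they place a probe in a known part of its channel, and because probes of the same gene at different places gave different ratios. All are 5′ to 3′ as deposited, 60 bases long, on the strand of the transcript. Capitals mark the stop codon in the *Kcnj11* and *Abcc8* probes, the run of aspartate codons of the calcium bowl (the calcium sensor of the BK channel) in *Kcnma1*, and the first bases of the calmodulin-binding IQ motif in the *Cacna1d* probe at base 5319. The *Cacna1d* probe at base 6904 covers the end of the coding region, and the *Cacna1c* probe at base 4126 lies in a transmembrane part of the channel. The number after each gene is the first base of the probe in its transcript, as the array files give it.
Kcnj11 1349: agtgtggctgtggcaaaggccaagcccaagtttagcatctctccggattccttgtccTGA
Abcc8 4689: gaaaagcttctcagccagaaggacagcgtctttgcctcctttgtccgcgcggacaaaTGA
Kcnma1 3543: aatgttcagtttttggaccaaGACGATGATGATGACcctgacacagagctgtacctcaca
Cacna1c 4126: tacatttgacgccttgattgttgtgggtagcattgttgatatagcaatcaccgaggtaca
Cacna1d 5319: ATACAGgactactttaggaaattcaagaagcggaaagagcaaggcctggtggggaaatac
Cacna1d 6904: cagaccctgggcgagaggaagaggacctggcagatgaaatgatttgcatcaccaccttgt

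The array files place these probes on the rat build rn4. *Kcnj11* 1349 lies at chr1:96616585-96616644 and *Abcc8* 4689 at chr1:96622574-96622633, both on the minus strand, so that the genes of both KATP subunits are neighbours. *Kcnma1* 3543 lies at chr15:904814-904873 on the plus strand, and *Cacna1c* 4126 at chr4:154936537-154936596 on the minus strand. *Cacna1d* 5319 and 6904 lie at chr16:5405783-5405842 and chr16:5384279-5384338 on the minus strand. The other genes lie on chromosome 19 (*Cacna1a*), chromosome 17 (*Cacnb2*) and chromosome 1 (*Trpm5*). The files do not say which exon or untranslated region a probe lies in, and the parts named above were read from the printed sequences.

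Values are the deposited normalised log2 values of each probe, and a log2 ratio is replicating minus quiescent within a preparation, averaged by a limma fit with the preparation as a block. Where a gene is given by 1 value, it is that of its brightest probe, the one with the highest mean over the 6 arrays. The share of probes well above background was 85.7% to 98.4% on the quiescent arrays and 80.8% to 87.3% on the replicating arrays. The quiescent array of preparation 2 stood apart: it had 1583 spots marked as outliers against 252 to 299 on the other 5 arrays, and it was the lowest of the 6 arrays on 34.6% and the highest on 34.3% of all probes. Sums of the β-cell markers, given as the log2 of the summed linear values of 11 genes, overlapped between quiescent (17.30 to 18.46) and replicating arrays (17.98 to 18.31). Sums of the 6 replication markers did not, at 11.54 to 12.60 and 14.01 to 14.08.

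*Kcnj11* encodes Kir6.2, the pore of the KATP channel. Its brightest probe, at base 2183, read 13.71, 13.86 and 13.91 in quiescent cells of preparations 1, 2 and 3, and 13.43, 13.52 and 13.84 in their replicating cells. The replicating cells read lower in each preparation, by 0.28, 0.34 and 0.06 on the log2 scale, but the groups overlapped, since the replicating array of preparation 3 lay above the quiescent array of preparation 1. The fitted log2 ratio was -0.23 ± 0.31 (SE), with a 95% interval from -1.02 to 0.57 (limma, adjusted p = 0.727). The printed probe at base 1349 read 8.70, 7.62 and 8.94 in quiescent and 8.76, 8.62 and 8.44 in replicating cells. Its preparation ratios of 0.07, 1.00 and -0.50 had no common sign, and its fitted ratio of 0.19 (interval -0.86 to 1.23) became -0.22 without preparation 2.

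*Abcc8* encodes SUR1, the regulatory subunit that surrounds the KATP pore and binds sulfonylureas. The probe that ends in its stop codon read 13.07, 13.19 and 13.25 in quiescent and 12.96, 13.19 and 12.80 in replicating cells. Preparations 1 and 3 had ratios of -0.10 and -0.46, while both arrays of preparation 2 read the same to 2 decimals. The fitted ratio of -0.19 ± 0.32 (SE) had an interval from a 2-fold decrease to a log2 ratio of 0.63 (limma, adjusted p = 0.788). The second probe, at base 4040, read 10.82, 10.76 and 11.28 in quiescent and 10.15, 11.15 and 10.97 in replicating cells, and its fitted ratio was -0.20. Both probes of *Abcc8* thus gave nearly 1 value, with a range of 0.01 between them. Single preparations of the second probe ran from -0.67 to 0.39.

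*Kcnma1* encodes the pore of the BK channel, a large-conductance potassium channel opened by calcium and voltage. The calcium bowl probe read 10.71, 10.69 and 10.64 in quiescent and 10.37, 10.73 and 10.68 in replicating cells. Its quiescent SD of 0.03 was the smallest of the 21 probes, and the only array away from the others was the replicating array of preparation 1. The fitted ratio was -0.09 ± 0.32 (SE), with an interval from -0.90 to 0.72 (limma, adjusted p = 0.908). A second probe, at base 5393 and with no rn4 position in the files, read 7.90, 6.49 and 8.41 in quiescent and 8.29, 8.52 and 8.05 in replicating cells. Its fitted ratio of 0.69 (interval -0.68 to 2.05) rested on preparation 2, where the quiescent array was lowest and the ratio was 2.03, and it was 0.02 without that preparation.

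**Figure D1:**
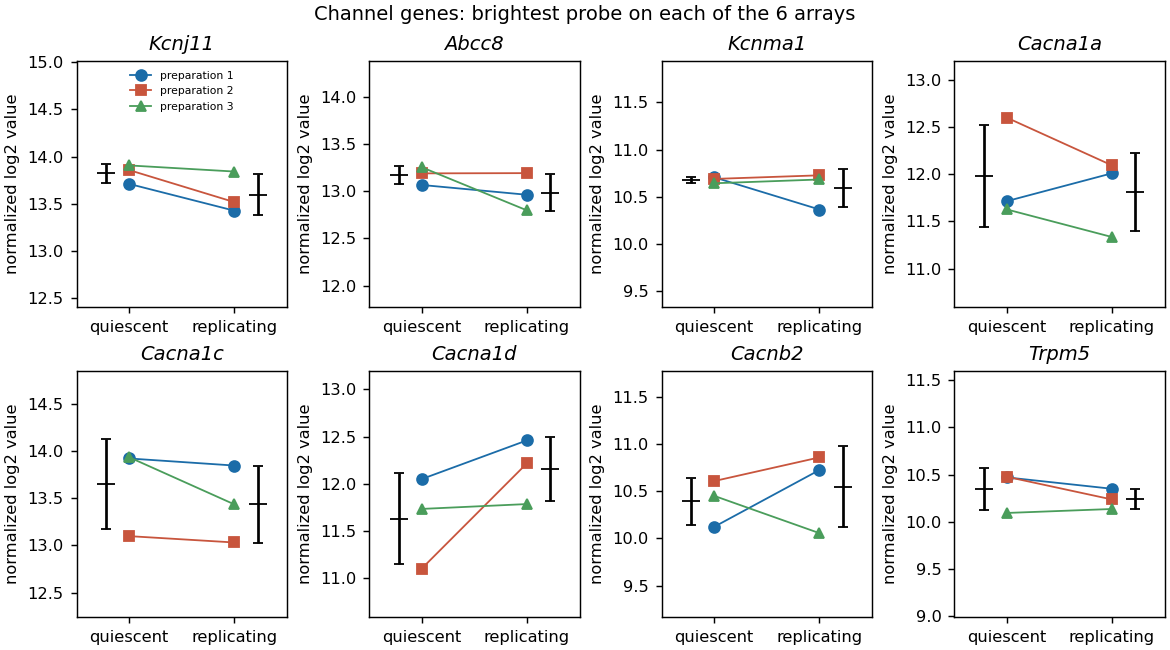
Normalised log2 value of the brightest probe of each channel gene in quiescent and replicating β-cells, with a line joining the arrays of 1 preparation and black bars for the mean ± SD of 3 arrays. Every panel spans the same log2 range, and *Cacna1d* is the only gene whose 3 lines all go up, from 11.10 to 12.22 in preparation 2. Of all genes, 19.4% had a ratio above 0 in all 3 preparations.

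The 3 α1 subunits form the calcium-conducting pores. *Cacna1a* encodes Cav2.1, the P/Q-type pore. Its brightest probe, at base 6046, read 11.71, 12.60 and 11.63 in quiescent and 12.01, 12.09 and 11.33 in replicating cells. The sign differed between preparations, at 0.30, -0.51 and -0.29, and the fitted ratio was -0.17 ± 0.34 (SE), with an interval from -1.04 to 0.70 (limma, adjusted p = 0.826). Without preparation 2 the ratio was 0.00, and without the quiescent array of preparation 2 alone it was 0.14. Its other probe, at base 8379, was well above background on 2 of 3 quiescent arrays and on 0 of 3 replicating arrays. Its mean values of 6.35 and 6.21 were close to background, so no fold is given, and its point in the plot of all probes is a difference between such values.

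*Cacna1c* encodes Cav1.2, an L-type pore of the β-cell. Its brightest probe, at base 4126, read 13.92, 13.10 and 13.93 in quiescent and 13.84, 13.03 and 13.43 in replicating cells. Both arrays of preparation 2 were the lowest of their group, and the replicating array was lower in each preparation, by 0.07, 0.07 and 0.50 on the log2 scale. The fitted ratio was -0.21 ± 0.32 (SE), with an interval from -1.03 to 0.60 (limma, adjusted p = 0.754).

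The other 4 probes of *Cacna1c* did not all follow it. At base 6469 the probe read 9.91, 10.98 and 10.11 in quiescent and 9.97, 10.74 and 10.01 in replicating cells, a fitted ratio of -0.10. At base 7550 the values were 9.40, 6.70 and 9.91 in quiescent and 9.88, 9.72 and 9.40 in replicating cells. Here 5 arrays lay within 0.51 of each other and the quiescent array of preparation 2 lay 2.96 below their mean. The fitted ratio of 1.00 had an interval from -0.84 to 2.83, and it was -0.01 without preparation 2. At base 7914 the values were 8.22, 6.93 and 9.59 in quiescent and 9.31, 9.47 and 8.84 in replicating cells, with preparation ratios of 1.09, 2.54 and -0.75. Its fitted ratio of 0.96 (interval -0.74 to 2.66) was 0.17 without preparation 2. The last of them, at base 12082, read 8.59, 7.60 and 8.01 in quiescent and 8.23, 9.01 and 8.005 in replicating cells, a fitted ratio of 0.35.

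*Cacna1d* encodes Cav1.3, the second L-type pore of β-cells, which opens at lower voltages than Cav1.2. The IQ motif probe read 12.05, 11.10 and 11.73 in quiescent and 12.46, 12.22 and 11.79 in replicating cells. The ratios were 0.41, 1.11 and 0.05, so the sign was shared but the groups overlapped, since the replicating array of preparation 3 lay below the quiescent array of preparation 1. The fitted ratio of 0.53 ± 0.36 (SE) had an interval from -0.40 to 1.45 (limma, adjusted p = 0.524), and it was 0.23 without preparation 2. *Cacna1d* was 1 of 8 genes with a ratio above 0 in all 3 preparations, as were 19.4% of all genes, and *Kcnj11* and *Cacna1c* were the 2 of 8 below 0 in all 3, as were 16.1%.

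The probe at the end of the *Cacna1d* coding region went the other way. It read 10.34, 12.22 and 9.14 in quiescent and 9.52, 10.19 and 9.51 in replicating cells. Its preparation ratios were -0.82, -2.03 and 0.38, and the fitted ratio was -0.82 (interval -2.17 to 0.53). The quiescent array of preparation 2 was 2.48 above the mean of the other 5 arrays, and without preparation 2 the ratio was -0.22. The probe at base 13822 of another transcript read 8.77, 7.02 and 9.02 in quiescent and 9.27, 8.59 and 8.75 in replicating cells, a ratio of 0.60 (interval -0.55 to 1.75). At base 9658 of a further transcript the values were 7.19, 6.60 and 8.78 in quiescent and 8.85, 8.62 and 8.17 in replicating cells. That ratio, 1.02 (interval -0.50 to 2.54), had the smallest p of the 21 probes (limma, adjusted p = 0.498), with preparation ratios of 1.65, 2.02 and -0.61.

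*Cacnb2* encodes a β subunit that brings α1 subunits to the membrane and sets their gating. Its brightest probe, at base 1911, read 10.12, 10.61 and 10.45 in quiescent and 10.72, 10.86 and 10.06 in replicating cells. Preparations 1 and 2 were positive, at 0.60 and 0.25, and preparation 3 was negative, at -0.39, for a fitted ratio of 0.15 ± 0.36 (SE) and an interval from -0.76 to 1.06 (limma, adjusted p = 0.850). The other probe, at base 3315, read 10.33, 10.13 and 11.11 in quiescent and 9.90, 10.13 and 9.97 in replicating cells. It was the only one of the 21 probes whose groups did not overlap, though preparation 2 read the same to 2 decimals in both. Over all probes, 7.11% had groups that did not overlap with replicating cells lower, and 8.89% with replicating cells higher. The fitted ratio was -0.52 (interval -1.47 to 0.42).

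*Trpm5* encodes a monovalent cation channel opened by intracellular calcium. The probe at base 3384 read 10.47, 10.48 and 10.09 in quiescent and 10.35, 10.24 and 10.14 in replicating cells. All 6 arrays lay within 0.38 of each other, and the fitted ratio was -0.11 ± 0.31 (SE), with an interval from -0.90 to 0.69 (limma, adjusted p = 0.883). Values at base 6307 were 9.39, 9.43 and 10.62 in quiescent and 9.97, 9.59 and 9.71 in replicating cells. Its ratios of 0.58, 0.16 and -0.91 gave a fitted ratio of -0.05 (interval -1.11 to 1.00).

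Across the 8 genes, 2 fitted ratios were above 0 and 6 below, with a median of -0.14, against 0.07 over all genes with a symbol. Scaled to the 75th percentile of each array in place of quantile normalisation, *Abcc8* and *Cacna1a* lay just above 0. Within preparations 1, 2 and 3 the medians of the 8 genes were -0.09, -0.03 and -0.18. No gene and none of the 21 probes reached an unadjusted p of at most 0.05, which 9.32% of all genes and 9.38% of all probes did. No probe on the array passed an adjusted p of 0.05 (limma with Benjamini-Hochberg), a share of 0%. How far the absence of a call reaches differed between genes. The 95% interval of the brightest probe lay below a 2-fold increase (log2 ratio 1) for 6 genes, all but *Cacna1d* and *Cacnb2*. It lay above a 2-fold decrease for 4 genes, *Kcnma1*, *Cacna1d*, *Cacnb2* and *Trpm5*. Among the brightest probes, those of *Kcnma1* and *Trpm5* were bounded on both sides. This held in only 5 and 6 of 14 other settings of the fit, and in neither gene with preparation 1 or 3 left out. The 14 include a recomputation of the deposited values, which gives the same result by construction.

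**Figure D2:**
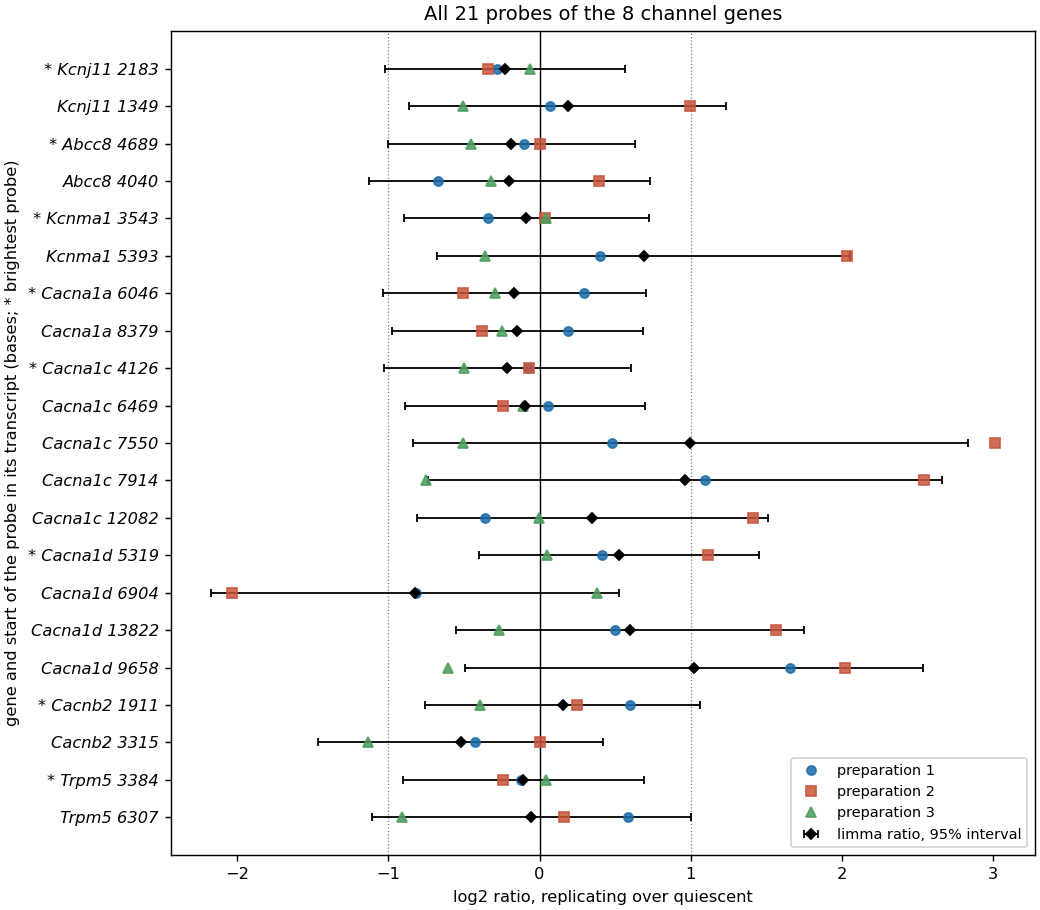
Log2 ratio of replicating over quiescent cells for the 21 probes, with 1 coloured point per preparation and a black diamond with its 95% interval from the limma fit; dotted lines mark a 2-fold change. All 21 intervals include 0, and the widest, from -0.84 to 2.83, belongs to *Cacna1c* 7550, where preparation 2 lies at 3.01.

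Probes of 1 gene did not always give 1 ratio. The lowest and highest ratio among the probes of a gene lay 1.85 apart for *Cacna1d*, 1.21 apart for *Cacna1c*, 0.78 for *Kcnma1*, 0.67 for *Cacnb2* and 0.42 for *Kcnj11*. For *Abcc8* and *Trpm5* the distance was 0.01 and 0.05. Over the 5009 genes with at least 2 probes its median was 0.62, with quartiles of 0.30 and 1.08, so *Cacna1d* and *Cacna1c* lay in the upper quartile. Both have more probes than the other members, which widens a range. The files do not say which transcript forms the cells held, so a difference between probes could not be assigned to a form. The ratios of these probes varied with base composition and with probe level. Over the 21 probes, the correlation (Pearson's r) of the ratio with the share of G and C bases was -0.63, -0.55 and 0.38 in preparations 1, 2 and 3, and over all probes it was -0.19, -0.17 and 0.17. The correlation of the ratio with the mean value of the probe was -0.36, -0.43 and 0.13 over the 21 probes, and 0.02, 0.17 and 0.03 over all probes. These probes share genes and arrays, and the parts of base composition and level in the ratios were not tested.

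Preparation 2 held most of the large ratios of the member probes, and the share of all probes with ratios of that size was not computed. A ratio of at least 1 in size, up or down, was read for 2 of the 21 probes in preparation 1, for 8 in preparation 2 and for 1 in preparation 3. Of the 8 in preparation 2, 7 were higher in replicating cells and 1, *Cacna1d* 6904, was lower. The quiescent array of preparation 2 was the lowest of the 6 arrays on 8 of the 21 member probes and the highest on 4. Over all probes it was the lowest on 34.6% and the highest on 34.3%. It deviated from the mean of the other 5 arrays by -2.96 at *Cacna1c* 7550, -2.15 at *Cacna1c* 7914, -1.86 at *Cacna1d* 13822, -1.74 at *Kcnma1* 5393 and -1.72 at *Cacna1d* 9658. On the brightest probes the same array deviated by at most 0.95, at *Cacna1d* 5319.

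**Figure D3:**
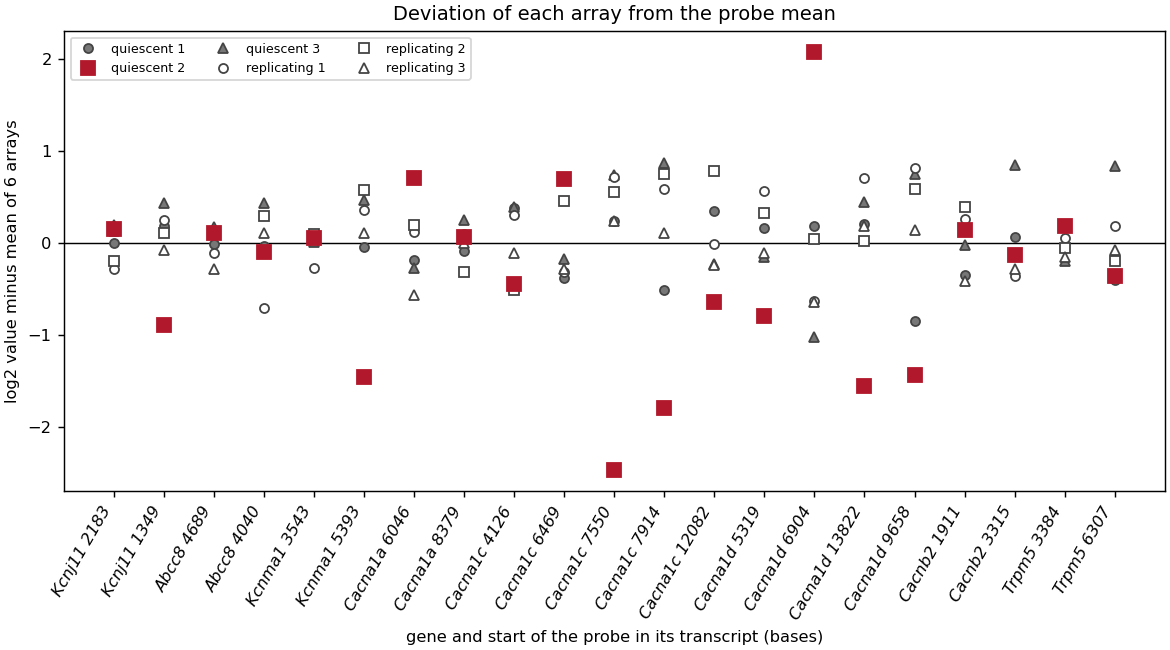
Deviation of each array from the mean of the 6 arrays for the 21 probes in log2 units, with quiescent arrays filled, replicating arrays open and the quiescent array of preparation 2 in red. The red squares lie furthest from 0 at *Cacna1c* 7550 and, upward, at *Cacna1d* 6904, and lie close to the other arrays for both probes of *Cacnb2*.

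Leaving out preparation 3 brought 3 member probes to an unadjusted p of at most 0.05. These were *Cacna1d* 9658 at 1.84, *Cacna1c* 7914 at 1.82 and *Cacna1d* 6904 at -1.42. Their adjusted p values were 0.167, 0.187 and 0.206. Of all probes, 23.0% reached that p without preparation 3. Without preparation 1 or 2, when 1.26% and 5.25% of all probes reached it, no member probe did. Ratios above 0 were read for 12 of the 21 probes in preparation 1, 13 in preparation 2 and 4 in preparation 3. The median ratio of all probes was -0.02, -0.07 and -0.04 in preparations 1, 2 and 3.

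The spread among quiescent arrays exceeded that among replicating arrays for 14 of the 21 probes, as it did for 85.9% of all probes. The median SD of the member probes was 0.52 in quiescent and 0.33 in replicating cells, against 0.65 and 0.22 over all probes. The 7 exceptions included the brightest probes of both KATP genes, whose replicating SD (0.22 for *Kcnj11*, 0.20 for *Abcc8*) was above the quiescent SD (0.10 and 0.10).

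For each gene, the genes whose brightest probe had the most similar profile over the 6 arrays were found among 13417 genes well above background on all arrays, by the root mean square difference of log2 values after each profile was centred on its mean. Nearest to *Kcnj11* were *Rpl21*, *Ube2e2* and *Farsa*, at 0.08 to 0.09. *Abcc8* was followed by *Xbp1*, *Dhx32* and *Slc29a3*, at 0.06 to 0.07, and *Kcnma1* by *Mien1*, *Gykl1* and *Ppp1r27*, at 0.05 to 0.06. Among the α1 subunits, *Cacna1a* was nearest to *Rps6kb2*, *Ttc7a* and *Rnase4*, *Cacna1c* to *Arg2*, *Disc1* and *Idh1*, and *Cacna1d* to *Bnip3l*, *Tbcc* and *Fnbp1l*, all at 0.09 to 0.16. Close to *Cacnb2* were *Rbm4b* and *Thrap3*, at 0.09 and 0.10, and close to *Trpm5* were *Afg3l2*, *Tmem88b* and *Asf1a*, at 0.05 to 0.06. Between members, the nearest pair was *Kcnj11* and *Kcnma1*, at 0.15, and both KATP subunits lay 0.22 apart. With so many genes searched and 6 arrays, likeness is a description of these profiles.

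The remaining genes of the excitation pathway were taken from 8 lists, of which 176 of 179 genes were on the array. Of these, 72 had a ratio above 0 and 104 below, with a median of -0.13 against -0.14 for the 8 genes. At an unadjusted p of at most 0.05 with a log2 ratio of at least 1 in size, the criteria of the study, 4 were higher and 5 lower in replicating cells. Of all genes, 6.28% were called higher and 2.11% lower. All 9 had an adjusted p of 0.483. Without preparation 1 none of the 176 was called, without preparation 2 there were 3 higher and 3 lower, and without preparation 3 there were 12 and 21. In these fits 1.26%, 5.25% and 23.0% of all probes reached an unadjusted p of at most 0.05, so the counts moved with the whole array.

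**Figure D4:**
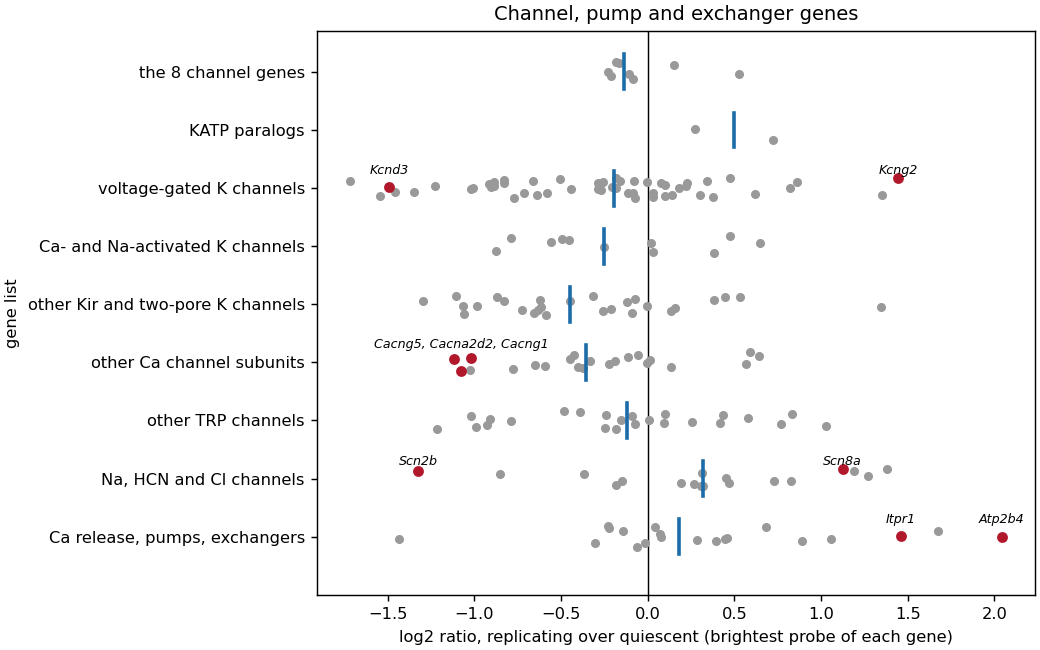
Log2 ratio of replicating over quiescent cells for the brightest probe of the 8 channel genes and of the 176 genes of 8 other lists, each gene a point, with a blue line at the median of each list and the 9 called genes in red with their names. The 8 genes span -0.23 to 0.53, and the largest ratio on the other lists is that of *Atp2b4*, at 2.04.

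Among genes of calcium release, store-operated calcium entry, calcium pumps and exchangers, 2 of 20 were called, both higher, against 6.28% of all genes called higher. *Atp2b4*, a plasma membrane calcium pump, read 8.79, 7.94 and 10.28 in quiescent and 11.13, 11.00 and 11.01 in replicating cells, a ratio of 2.04 ± 0.53 (SE). *Itpr1*, the inositol trisphosphate receptor that releases calcium from the endoplasmic reticulum, read 8.68, 8.07 and 10.11 in quiescent and 10.41, 10.49 and 10.34 in replicating cells, a ratio of 1.46. For both, the 3 replicating arrays lay within 0.15 of each other and the quiescent array of preparation 2 was the lowest. The median of this list was 0.18. Other probes of *Atp2b4* gave 0.81 and 0.15, neither of which passed the test.

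Of the 22 other subunits of voltage-gated calcium channels, 5 had a ratio above 0 and 17 below, with a median of -0.35. The 3 called were auxiliary subunits and all were lower, against 2.11% of all genes called lower. *Cacna2d2*, an α2δ subunit, read 13.87, 14.20 and 12.41 in quiescent and 12.37, 12.63 and 12.25 in replicating cells, a ratio of -1.08 ± 0.42 (SE), and its second probe gave -1.53. *Cacng5* and *Cacng1*, of the γ subunit family, had ratios of -1.12 and -1.02. For these genes the difference in preparation 3 was smaller than in the other preparations, at -0.16 for *Cacna2d2*. The unadjusted p of *Cacna2d2*, *Cacng1* and *Cacng5* rose above the limit of the call in 9, 7 and 6 of 15 other settings. With cyclic loess *Cacng1* and *Cacng5* passed on p, but their ratios of -0.95 and -0.97 were under the size limit. Their calls were therefore lost in that setting too. The 15 include a recomputation of the deposited values, where no call could be lost. None of the pore-forming genes on the list was called, which does not set them apart at shares of 6.28% higher and 2.11% lower over all genes.

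Voltage-gated potassium channels and their subunits had a median of -0.19, with 18 of 52 genes above 0. *Kcng2*, a silent subunit that modifies Kv2 channels, read 8.30, 9.01 and 9.27 in quiescent and 9.88, 10.73 and 10.31 in replicating cells, a ratio of 1.45 ± 0.33 (SE), with 1.03 or more in every preparation. Its second probe gave 0.49, which did not pass. *Kcnd3*, the A-type channel Kv4.3, had a ratio of -1.49 on its brightest probe, against -0.31 and 0.10 on its other probes.

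Calcium- and sodium-activated potassium channels (11 genes, median -0.25), other inward rectifier and two-pore potassium channels (27 genes, median -0.45) and other TRP channels (24 genes, median -0.12) had no called gene. In the last of these lists *Trpm4*, the closest relative of *Trpm5*, had a ratio of 0.42. The BK β subunits *Kcnmb1*, *Kcnmb2*, *Kcnmb3* and *Kcnmb4* had ratios of 0.03, 0.65, -0.45 and 0.48, and none passed. Of 18 sodium, HCN and chloride channel genes, with a median of 0.32, *Scn8a* was higher at 1.12 and *Scn2b* lower at -1.32. A second probe of *Scn8a* gave 0.54, with 0.75, 1.71 and -0.83 in preparations 1, 2 and 3, and did not pass. *Scn2b*, a β subunit of sodium channels, read 11.86, 12.92 and 12.52 in quiescent and 10.64, 11.46 and 11.22 in replicating cells on its brightest probe. There its ratio was between -1.22 and -1.46 in all 3 preparations. Its second probe gave -1.13, with -1.06, -2.13 and -0.20 in preparations 1, 2 and 3, and did not pass.

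The KATP channel has a second pore and a second regulatory subunit in other tissues, encoded by *Kcnj8* (Kir6.1) and *Abcc9* (SUR2). *Kcnj8* read 8.64, 7.90 and 7.70 in quiescent and 8.57, 8.50 and 7.98 in replicating cells, a ratio of 0.27 (interval -0.57 to 1.11). *Abcc9* read 6.17, 6.61 and 6.81 in quiescent and 7.85, 6.41 and 7.50 in replicating cells, a ratio of 0.72 (interval -0.44 to 1.89), and it was not well above background on 1 of 3 replicating arrays. Both genes are known from vascular smooth muscle and pericytes.

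Summed markers of some other islet and pancreatic cells did not overlap between the groups, and those of others did. Of all genes, 6.28% were called higher, and 19.4% read higher in all 3 preparations. The summed α-cell markers (8 genes, 2 called higher, 3 higher in all 3 preparations) ran from 12.70 to 14.29 in quiescent and from 14.53 to 16.49 in replicating cells. PP-cell markers (2 genes, 1 called higher, 1 higher in all 3) ran from 11.25 to 11.89 and from 12.14 to 13.16. Fibroblast, stellate and smooth muscle markers (14 genes, 3 called higher, 4 higher in all 3) ran from 12.59 to 13.82 and from 13.83 to 15.29. In preparation 2 their sums were nearly equal, at 13.82 in quiescent and 13.83 in replicating cells, and their median ratio was -0.24. These 3 lists and the replication markers, 6 of 6 called higher, were those whose sums did not overlap between the groups. A sum of linear values is weighted to the brightest genes of its list. Of all single probes, 8.89% had groups that did not overlap with replicating cells higher. Sums of δ-cell (4 genes, 2 called higher), acinar (8 genes, 1), immune (7 genes, 2), duct (7 genes, 1), endothelial (7 genes, 0) and neuronal and glial markers (8 genes, 0) overlapped. Compared within preparations, the acinar and immune sums were higher in the replicating cells of all 3, and the duct and endothelial sums were lower. Of 11 β-cell markers, 4 had a ratio above 0 and 7 below, with a median of -0.15. Of these, 1, the transcription factor gene *Mafa*, was called lower, at -1.01, close to the limit of 1 in size. Of all genes, 2.11% were called lower. The insulin genes *Ins1* and *Ins2* had ratios of 0.25 and 0.42 and *Iapp*, islet amyloid polypeptide, 0.91, none of which passed the test. The part of other cell types in the channel gene values was not tested.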

How the data were processed

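RNA from sorted, fixed β-cells was amplified and hybridised by the authors to 1-colour (Cy3) Agilent rat arrays, read with Feature Extraction 10.7.3.1. The authors deposited the spot intensity values, unnormalised, and log2 values that they had corrected with normexp and quantile normalised. The deposited log2 values were used here; normexp at an offset of 50 with quantile normalisation gave the same values within 0.000245. Control spots were left out and spots of a probe averaged. Every probe was fitted with limma 3.58.1 in R 4.3.3 (files read with version 1.17.8 of data.table), two-sided, with a term for the islet preparation (the study also used a paired test) and Benjamini-Hochberg adjustment over all 45598 probes. Pairing comes from the design, which give 1 sample of each group per preparation; within pairs, deviations from the group mean correlated at 0.06, 0.23 and 0.25. The 3 preparations are separate pools of rats, and their number limits the precision. No spot was saturated.

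Genes named are the 8 channel genes, at most 6 called genes per channel list, *Kcnj8* and *Abcc9*, the 3 nearest profiles per member (an item that meets this rule is not reported here), and the markers *Ins1*, *Ins2* and *Iapp*; the other 3 brightest markers per list are not printed. *Trpm4*, *Kcnmb1* to *Kcnmb4* and *Mafa* were named after their values were seen. The members and lists were chosen with earlier results of these data known. The fit was tested on simulated data. Alternatives were other background corrections and normalisations, a filter on dim probes, outlier spots left out, a fit without the block, a variance trend, a median over each gene's probes, and each preparation left out. All arrays were on 1 slide, so no slide block was fitted. No genome of rn4 was used here.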

Additional observations from a re-analysis of the deposited data

How the results depend on the processing

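No member gene was called in any of the alternatives. *Kcnj11*, *Cacna1d* and *Trpm5* kept their sign in all of them, from -0.36 to -0.02, from 0.08 to 0.76 and from -0.23 to -0.04. Small ratios changed sign. With values scaled to the 75th percentile of each array, *Abcc8* was 0.014 and *Cacna1a* 0.034 (normexp), or 0.025 and 0.026 (processed signal); these scalings put the median of all probes at -0.41 and -0.74, against -0.08, so that every ratio is relative to that shift. *Cacnb2* was -0.017 with cyclic loess. With a median over each gene's probes, *Cacnb2* was -0.18, *Kcnma1* 0.30 and *Cacna1c* 0.70; there the called decrease of *Kcnd3* (-1.49) was lost and turned to 0.028. *Kcnj8* was -0.14 and -0.16 under the scalings. The median of the 8 genes was -0.0060 (normexp, scaled), 0.0047 (processed signal), -0.25 (cyclic loess) and -0.051 (median over probes). The other channel genes called higher numbered 7 with cyclic loess, 1 with the processed signal and 2 with the median over probes. Those called lower numbered 21 with scaled normexp values and 8 with the processed signal. The share of all probes at an unadjusted p of at most 0.05 was 9.38% in the main fit. It was 13.7% with cyclic loess, 15.3% with scaled normexp values and 8.15% with the processed signal, and 9.53% of genes with the median over probes. The cause was not tested.

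Leaving out 1 preparation, or the quiescent array of preparation 2 alone (an alternative chosen after seeing the data), gave from -0.15 to 0.039 for *Kcnma1*, from -0.40 to 0.14 for *Cacna1a*, from -0.072 to 0.43 for *Cacnb2*, from -0.28 to -0.05 for *Abcc8*, from -0.49 to -0.07 for *Cacna1c*, from 0.23 to 0.76 for *Cacna1d*, and from -0.15 to -0.062 for the median of the 8 genes. In these fits 0 to 12 other channel genes were called higher and 0 to 21 lower. The share of all probes at an unadjusted p of at most 0.05 ran from 1.26% to 23.0%.

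Without the replicate block all ratios were the same by construction, and no member call changed. *Cacna1d* had an adjusted p of 0.558 (limma). There 4 other channel genes were called higher and 6 lower, *Cacna2d2* no longer among them, and 7.89% of all probes reached an unadjusted p of at most 0.05. With 3 pairs, SEs of the brightest probes were 0.31 to 0.36, so that changes under about 2-fold could not be told from the spread, and *Cacna1a* 8379 was too dim to read.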
